A study of Mus musculus with 4 samples.

Results

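The genes of oxidative phosphorylation were followed across hematopoietic stem cells (HSCs), the rare bone marrow cells that replenish all blood lineages. Members were taken by symbol: names opening with Nduf followed by a, b, c, s or v, with Cox and a number from 4 to 8, with Uqcr or with Atp5, and the genes Sdha to Sdhd, gave the nuclear genes, and the prefix mt- gave the genes of the mitochondrial genome. Of 106 gene identifiers that matched, 98 had a mean of 5 or more CPM (counts scaled to a common total per library) over the cells kept, and these 98 of the 31053 genes counted are described here. They are 85 nuclear and 13 mitochondrial genes. The cells came from male mice of the strain Tie2-bG-Micm x RosaYFP, aged 14 weeks, and from each of 2 mice a long-term (LT-HSC) and a short-term (ST-HSC) population had been sorted from bone marrow. The 4 libraries are written here as LT-HSC 1, LT-HSC 2, ST-HSC 1 and ST-HSC 2, after the number of the mouse. Both gates required Kit and Sca1 without lineage markers or CD48, and CD150 was present on LT-HSC and absent from ST-HSC. All 4 groups of cells carried both alleles in the strain name, a Tie2-driven transgene and a YFP reporter at the Rosa locus, so there was no group without them.

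Oxidative phosphorylation is carried out by 5 protein complexes in the inner mitochondrial membrane. Complexes I (NADH dehydrogenase), II (succinate dehydrogenase), III (cytochrome bc1) and IV (cytochrome c oxidase) pass electrons to oxygen and, except complex II, pump protons, and complex V (ATP synthase) uses the proton gradient to make ATP. Subunits of all but complex II come from both genomes, with the nuclear ones made in the cytosol and imported. HSCs are known as mostly quiescent cells that rely on glycolysis while at rest and use more mitochondrial respiration when they enter the cell cycle.

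Among the 85 nuclear members 44 belonged to complex I (8 of them assembly factors named Ndufaf), 4 to complex II, 8 to complex III, 13 to complex IV and 16 to complex V. Of the mitochondrial members 7 encode complex I subunits, 1 (mt-Cytb) a complex III subunit, 3 complex IV subunits and 2 complex V subunits. Members just inside the limit were Ndufaf5, with a mean of 10.1 CPM, and Ndufaf6, with 16.7 CPM. Just outside it stood Cox4i2 with 3.30 CPM, Cox7a1 with 1.61 CPM and Cox6a2 with 1.02 CPM, isoforms known from lung or muscle. Cox7b2 (0.073 CPM) and a second identifier for Atp5o (1 UMI in all) were also outside, and Cox8b, Cox8c and Ndufa4l2 had no count in any kept cell. Taking the mean over cells or over libraries in place of the pooled mean gave the same numbers of members, 85 and 13.

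Short sequence motifs of the regulators NRF1, GABPA and YY1, transcription factors known to act on nuclear respiratory genes, were searched on both strands of the 300 bases around the transcription starts that RefSeq gives for build GRCm38.p6. A promoter was found for 73 of the 85 nuclear members. The NRF1 letters GCGCATGCG were in 10 of these 73 (13.7%) against 1.95% of 27025 genes of the same table. In 7 of the 10 the matches on the 2 strands overlapped and gave a run of 10 bases. The YY1 letters AAGATGGCG were in 8 (10.96%) against 1.64% of all genes, and the GABPA letters CCGGAAGTG in 2 (2.74%) against 2.25%. Each window below has 30 bases and is read 5′ to 3′ on the gene's strand. They are shown because a larger share of these promoters than of all promoters held the NRF1 and YY1 letters, and capitals mark the match. The 10 windows with the NRF1 letters are these.
Atp5g2: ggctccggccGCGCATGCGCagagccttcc
Atp5k: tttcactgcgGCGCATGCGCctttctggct
Atp5l: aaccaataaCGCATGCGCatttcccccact
Cox6a1: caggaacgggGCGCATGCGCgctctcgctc
Ndufa11: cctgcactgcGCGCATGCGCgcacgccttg
Ndufa8: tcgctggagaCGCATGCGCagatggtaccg
Ndufaf4: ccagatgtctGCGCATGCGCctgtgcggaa
Ndufaf5: agtcccgttgGCGCATGCGCctaatagaaa
Uqcr11: atcgccttcaCGCATGCGCtatacgtctgc
Uqcrc1: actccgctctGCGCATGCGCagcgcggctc
Positions are counted from the transcription start, with negative numbers before it. The match began at -42 of Atp5g2 (chr15:102671070-102671099), -50 of Atp5k (chr5:108434430-108434459), -241 of Atp5l (chr9:44920963-44920992), -162 of Cox6a1 (chr5:115349101-115349130) and -60 of Ndufa11 (chr17:56717692-56717721). It began at -9 of Ndufa8 (chr2:36049328-36049357), -113 of Ndufaf4 (chr4:24897960-24897989), -5 of Uqcr11 (chr10:80406807-80406836), 17 of Ndufaf5 (chr2:140170652-140170681) and 31 of Uqcrc1 (chr9:108936668-108936697). The 8 windows with the YY1 letters follow.
Atp5j: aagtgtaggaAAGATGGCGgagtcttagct
Atp5j2: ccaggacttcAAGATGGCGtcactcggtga
Ndufa9: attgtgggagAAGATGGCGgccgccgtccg
Ndufaf8: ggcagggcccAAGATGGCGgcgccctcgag
Ndufc1: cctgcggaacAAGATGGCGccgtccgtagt
Ndufs4: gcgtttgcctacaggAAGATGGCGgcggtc
Ndufs6: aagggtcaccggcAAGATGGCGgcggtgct
Ndufs7: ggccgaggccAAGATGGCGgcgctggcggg
These matches began at -88 of Atp5j (chr16:84835045-84835074), 24 of Atp5j2 (chr5:145191499-145191528), 30 of Ndufa9 (chr6:126849096-126849125) and 11 of Ndufaf8 (chr11:120098934-120098963), and at 23 of Ndufc1 (chr3:51408914-51408943), 36 of Ndufs4 (chr13:114388045-114388074), 34 of Ndufs6 (chr13:73328433-73328462) and 25 of Ndufs7 (chr10:80249463-80249492). All 8 were on the gene's own strand, and 7 lay after the start, between bases 11 and 36. The genes with a window are named for their letters and not for their values. A match is a description of the letters and not of binding.

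A cell was kept when it had at least 1000 genes, at least 2000 unique molecular identifiers (UMIs, 1 per captured RNA molecule) and at most 10% of UMIs from mitochondrial genes. This left 22 cells of LT-HSC 1, 1217 of LT-HSC 2, 2633 of ST-HSC 1 and 1707 of ST-HSC 2, with 115305 UMIs in the first library and from 13249904 to 27870823 in the others. The LT-HSC 1 library stood apart: it held 39553 barcodes with a median of 285 UMIs, and its kept cells had a median of 4494.5 UMIs against 7504 to 10367 in the other libraries. For the shares and the comparison of gates its values are also given with all its barcodes counted. In that setting 13460097 of its 13575402 UMIs came from barcodes that failed the limits above. The other libraries were still limited to kept cells, so that unlike barcodes were compared. Whether the failed barcodes held cells was not tested. At most 1 kept barcode was shared by any 2 libraries. A list of 8 HSC markers summed to between 1920 and 2437 CPM and none was at 0 in any library, while 9 neutrophil lineage markers summed to between 500 and 2351 CPM, the highest in ST-HSC 2.

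Together the nuclear members took about 2% of a cell's UMIs and the 13 mitochondrial members about 3% to 4%. The nuclear share of all UMIs was 1.73% in LT-HSC 1, 2.08% in LT-HSC 2, 2.06% in ST-HSC 1 and 2.23% in ST-HSC 2. The mitochondrial share was 4.43%, 3.15%, 3.41% and 3.22% in the same order. The small LT-HSC 1 library had the lowest nuclear and the highest mitochondrial share, and the other 3 libraries lay within 0.3 percentage points of each other in both. With all its barcodes, nearly all of which failed the limits for a kept cell, its shares were 2.20% and 4.30%. Its nuclear share was then no longer the lowest.

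**Figure D1:**
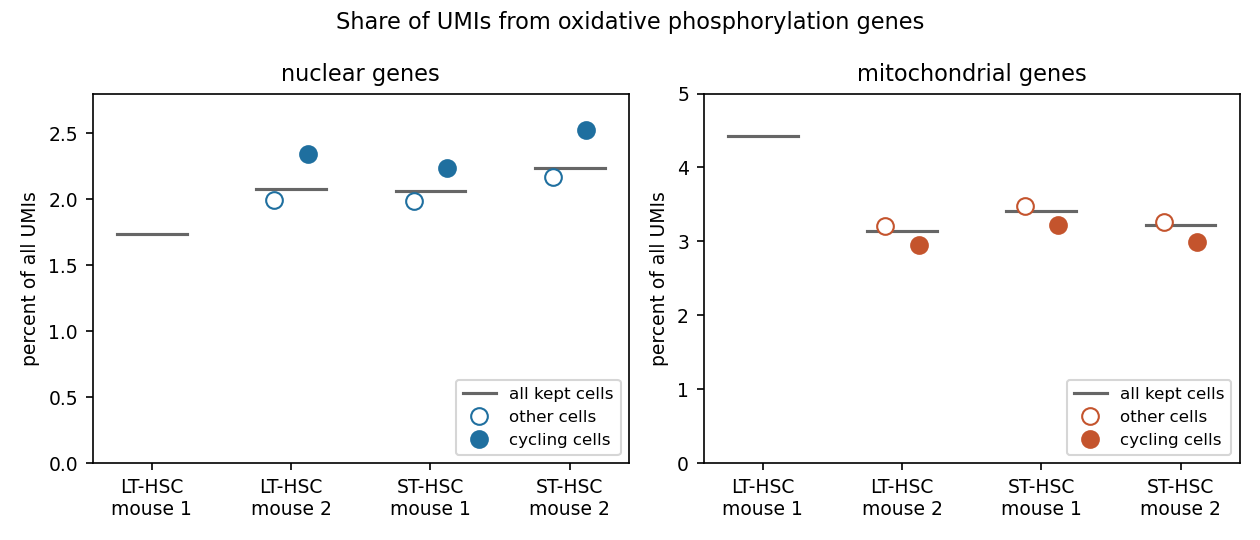
Share of all UMIs (percent, linear axis from 0) from the 85 nuclear members (left) and the 13 mitochondrial members (right) in each library. Grey lines are all kept cells, open points cells without and filled points cells with a UMI of Mki67 or Top2a; in the 3 libraries with both classes plotted the filled point is above the open point on the left (2.24% to 2.52% against 1.99% to 2.17%) and below it on the right.

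Per complex, nuclear complex I genes took between 0.493% and 0.690% of UMIs over the 4 libraries, complex II 0.0286% to 0.0388%, complex III 0.228% to 0.245%, complex IV 0.454% to 0.611% and complex V 0.527% to 0.650%. On the mitochondrial side complex IV took 1.54% to 2.13%, complex V 0.696% to 1.06%, complex I 0.573% to 0.748% and mt-Cytb alone 0.286% to 0.488%. The LT-HSC 1 library was at the high end of all 4 mitochondrial ranges and at the low end of nuclear complexes I, II, IV and V. With all its barcodes it had 0.673% of UMIs in nuclear complex I, 0.0318% in II, 0.247% in III, 0.592% in IV and 0.660% in V. Its mitochondrial shares were then 2.11% for complex IV, 1.09% for V, 0.664% for I and 0.432% for mt-Cytb.

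Levels of single members are CPM of 3′ tags, of which 1 is counted per molecule, so they were not divided by gene length. Tags per molecule do not depend on gene length in the way whole-transcript reads do, and the order of levels between genes was not tested. The median nuclear member had 147 CPM in LT-HSC 1 (204 CPM with all barcodes) and 177 to 199 CPM elsewhere. In each complex the member with the highest mean over all kept cells was Ndufa13 (complex I), Sdha (complex II, the flavoprotein that oxidises succinate), Uqcrh (complex III), Cox8a (complex IV) and Atp5e (complex V, the epsilon subunit of the ATP synthase). In complex V Atp5e (828 CPM) and Atp5g2 (815 CPM) were close, and by the mean over libraries Atp5g2 (827 CPM) was above Atp5e (794 CPM). Cox8a, a small subunit of complex IV, had 789, 998, 926 and 1099 CPM in the order given above. In the LT-HSC 1 library a floor of 3 counts corresponds to 26.0 CPM, and 6 nuclear members lay at or under it there. No member was under the floor in the other 3 libraries.

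Isoforms of complex IV subunits differed widely in level. Cox4i1, the common form of subunit 4, had 529 to 646 CPM over the 4 libraries when all barcodes of LT-HSC 1 are counted as well, against a mean of 3.30 CPM for Cox4i2. Cox6a1 had 87 to 132 CPM, against 1.02 CPM for Cox6a2. Cox7a2 had 321 to 352 CPM and Cox7a2l 335 to 426 CPM, against 1.61 CPM for Cox7a1. Ndufa4 had 442 to 833 CPM and Ndufa4l2 none. Cox6b2, an isoform otherwise known from testis, passed the limit with 43.4, 51.8, 42.4 and 40.9 CPM, beside 269, 374, 396 and 419 CPM for the common form Cox6b1.

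The 13 mitochondrial genes are transcribed as long precursors from both strands of a circular genome, and mt-Nd6 is the only protein gene read from the light strand. In all 4 libraries mt-Co1, mt-Co2, mt-Co3 and mt-Atp6 together held 70.1% to 72.2% of the mitochondrial UMIs. The 3 genes mt-Atp8, mt-Atp6 and mt-Co3 overlap their neighbours on the genome, as do mt-Nd4l and mt-Nd4, so that tags in the shared bases cannot be assigned with certainty. Of the nuclear members 12 overlap another annotated gene on the same strand and 30 on the opposite strand in GENCODE vM21 (build GRCm38, the same assembly as mm10).

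The first comparison asked whether LT-HSC and ST-HSC differed. No nuclear and no mitochondrial member passed the test between the gates, on sums of UMIs per library with 2 libraries in each group (edgeR quasi-likelihood test, Benjamini-Hochberg adjusted p under 0.05 over all 12656 genes tested). Over all genes 6.72% passed, so the members' count of 0 of 98 was under the background. At an unadjusted p under 0.05, 1 nuclear and 2 mitochondrial members were found. DESeq2 likewise called no member, with 0.339% of 14433 genes called. The median log2 fold change, LT-HSC over ST-HSC, was -0.10 for the nuclear and 0.09 for the mitochondrial members against -0.02 for all genes. In this direction 65 nuclear members had a negative and 20 a positive estimate, and 4 mitochondrial members a negative and 9 a positive one. The nuclear direction turned with the treatment of LT-HSC 1. With all its barcodes counted 10 nuclear members were negative and 75 positive, with a median of 0.10, and 2 mitochondrial members were negative and 11 positive, with a median of 0.31.

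**Figure D2:**
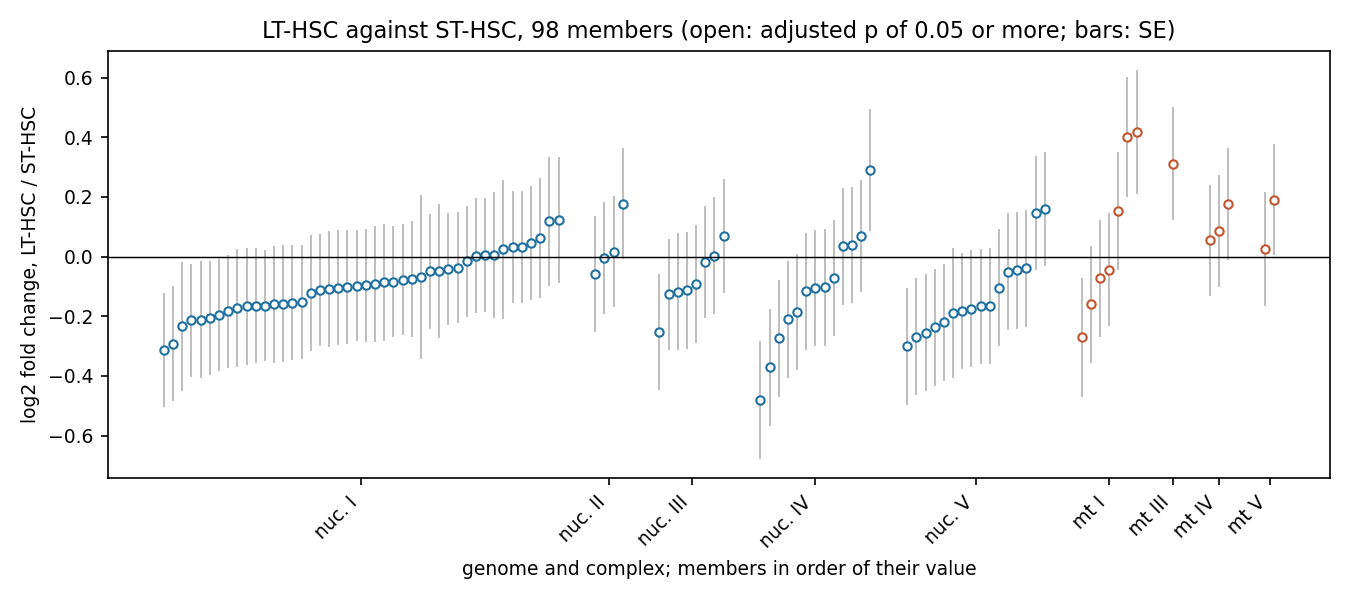
Log2 fold change of LT-HSC over ST-HSC (vertical axis) with its standard error for each of the 98 members, grouped by genome and complex and ordered by value within a group. All points are open, since none passed an adjusted p of 0.05; the lowest is Ndufa4 at -0.48 and the highest mt-Nd6 at 0.42.

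The nuclear member nearest the threshold was Ndufa4 (chr6:11900292-11907497), a small protein first assigned to complex I and later found in complex IV. It had 442 and 640 CPM in LT-HSC 1 and 2 and 720 and 833 CPM in ST-HSC 1 and 2. Both LT-HSC values were below both ST-HSC values. Its log2 fold change was -0.48 (SE 0.20, edgeR adjusted p = 0.161). With the mouse as a block, since a number stands for an animal that gave both gates, it was -0.54 (SE 0.18, edgeR adjusted p = 0.0465), so that the call depended on the block. That fit called 3.22% of all genes lower. With all barcodes of the LT-HSC 1 library the library's value was 698 CPM, the log2 fold change -0.10 and the adjusted p 0.857 without and 0.917 with the block.

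Other members with the smallest p also did not pass. Cox5a (chr9:57521274-57532426), a nuclear subunit of complex IV, had 165 and 255 CPM in LT-HSC 1 and 2 against 299 and 296 CPM in ST-HSC, a log2 fold change of -0.37 (SE 0.20, edgeR adjusted p = 0.410). For Atp5f1, a peripheral stalk subunit of the ATP synthase, Ndufb2 and Ndufb8, accessory subunits of complex I, and Cox6b1 the estimates ran from -0.31 to -0.27. With all barcodes of LT-HSC 1, Cox5a had 290 CPM there, and the estimates of these 5 genes lay between -0.01 and 0.03. Cox6b2 had an estimate of 0.29 (SE 0.20, edgeR adjusted p = 0.715). With all barcodes of LT-HSC 1, where it had 61.1 CPM, and the mouse as a block, it was higher in LT-HSC by 0.55 (SE 0.19, edgeR adjusted p = 0.0391), and without the block it did not pass (adjusted p = 0.0595). The blocked fit called 6.59% of all genes higher. Among the mitochondrial members mt-Nd6 had 113 and 51.1 CPM in LT-HSC 1 and 2 against 42.1 and 41.5 CPM in ST-HSC. The LT-HSC 1 value was the one that stood out. Its log2 fold change was 0.42 (SE 0.21, edgeR adjusted p = 0.345), and with all barcodes of that library, at 118 CPM, it was 1.17 (SE 0.32, edgeR adjusted p = 0.0425), a call made among 5.04% of all genes called higher.

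In kept cells the summed shares moved alike in both mice for the nuclear genes and in opposite directions for the mitochondrial genes. The log2 ratio of the nuclear share, LT-HSC over ST-HSC, was -0.25 in mouse 1 and -0.10 in mouse 2, a mean of -0.18 ± 0.10 (SD, n = 2 mice). With all barcodes of the LT-HSC 1 library the mouse 1 value became 0.098 and the mean -0.0031 ± 0.14. The mitochondrial log2 ratio was 0.38 in mouse 1 and -0.033 in mouse 2, a mean of 0.17 ± 0.29. The mouse 2 value was near 0, and its sign depended on the setting, as given below. Single complexes did not all follow the sums. In mouse 1 and mouse 2 the ratio was -0.26 and 0.0087 for nuclear complex II and 0.0059 and -0.10 for nuclear complex III. For mitochondrial complex V it was 0.44 and 0.029, above 0 in both mice. No test was made of these shares, since 2 libraries against 2 cannot pass an exact permutation test. Neutrophil lineage markers moved with the gate, at 520 and 500 CPM in LT-HSC against 1041 and 2351 CPM in ST-HSC 1 and 2. One of these markers, Prtn3, was detected in 86.4%, 92.0%, 94.1% and 89.1% of kept cells of LT-HSC 1, LT-HSC 2, ST-HSC 1 and ST-HSC 2. T and NK cell markers also moved with the gate, at 8.67 and 30.4 against 88.9 and 102 CPM. Erythroid markers, at 86.7 and 9.66 against 38.1 and 195 CPM, overlapped between gates. The part of such markers in the shares was not tested.

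The second comparison asked how cells in cycle differed from the rest. A cell with at least 1 UMI of Mki67 or Top2a, genes transcribed in dividing cells, was called cycling. There were 219 such cells of LT-HSC 2 (18.0%), 583 of ST-HSC 1 (22.1%) and 223 of ST-HSC 2 (13.1%). LT-HSC 1 had 2 and was left out, so that n was 3 libraries, each giving 1 sum per class. These 3 libraries came from 2 mice. As a check of the split 13 of 13 proliferation genes were higher in cycling cells, a list that includes both genes that define it.

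As a share of the cell's RNA many nuclear oxidative phosphorylation genes rose in cycling cells and several mitochondrial ones fell. Of 85 nuclear members 52 were higher, 3 lower and 30 did not pass (edgeR quasi-likelihood test with the library as a block, adjusted over 12582 genes). Over all genes 16.8% were higher and 13.2% lower. Of 13 mitochondrial members none was higher and 5 were lower. DESeq2 called 47 nuclear members higher and 2 lower and 3 mitochondrial members lower and none higher, where 9.63% of all genes were higher and 3.68% lower. At an unadjusted p under 0.05 edgeR found 9 of the 13 mitochondrial members. The median log2 fold change was 0.22 for the nuclear and -0.08 for the mitochondrial members, beside -0.03 for all genes.

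Depth moved with the class. The median cycling cell had 14351 UMIs against 9960 in other cells of LT-HSC 2, 12196 against 9452.5 in ST-HSC 1 and 9611 against 7313 in ST-HSC 2. In cells matched on UMIs, described below, far fewer members passed. Cell markers moved with the class as well. The 8 HSC markers summed to 1530, 1853 and 1743 CPM in cycling cells against 2047, 2321 and 2285 CPM in other cells of LT-HSC 2, ST-HSC 1 and ST-HSC 2. The 6 erythroid markers summed to 11.3, 108 and 927 CPM in cycling against 9.11, 10.2 and 36.9 CPM in other cells, and 3 T and NK cell markers to 56.7, 120 and 166 against 21.8, 76.6 and 88.3 CPM. The 9 neutrophil lineage markers summed to 296, 1682 and 1199 against 566, 784 and 2600 CPM, and 4 basophil and mast cell markers to 5.21, 4.52 and 444 against 2.30, 22.0 and 4.75 CPM. The HSC sum was thus lower and the erythroid and T and NK sums higher in cycling cells of all 3 libraries. The T and NK sum rested on few genes. Of its 3 markers 2, 1 and 2 were at 0 in cycling cells, against 1, 0 and 0 in other cells. One of them, Nkg7, was detected in 17.4%, 42.7% and 37.6% of kept cells. The neutrophil and the basophil and mast cell sums differed in direction between libraries. The planned rule left out cells with 3 or more UMIs of 25 markers of other cell types. It removed 919, 2173 and 1301 cells, and 6 nuclear members were then higher. The log2 ratio of the nuclear share, cycling over other cells, was 0.26, 0.071 and 0.16 in that setting. A rule chosen after seeing the data used 22 of the markers, without Prtn3, Cd79b and Nkg7. It left out 26, 65 and 52 cells, with 53 nuclear members higher and 3 lower, and 3 mitochondrial members lower. The share of all genes called under either rule is not given here, so these counts cannot be set against it. The part of cell composition in these values was not tested.

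**Figure D3:**
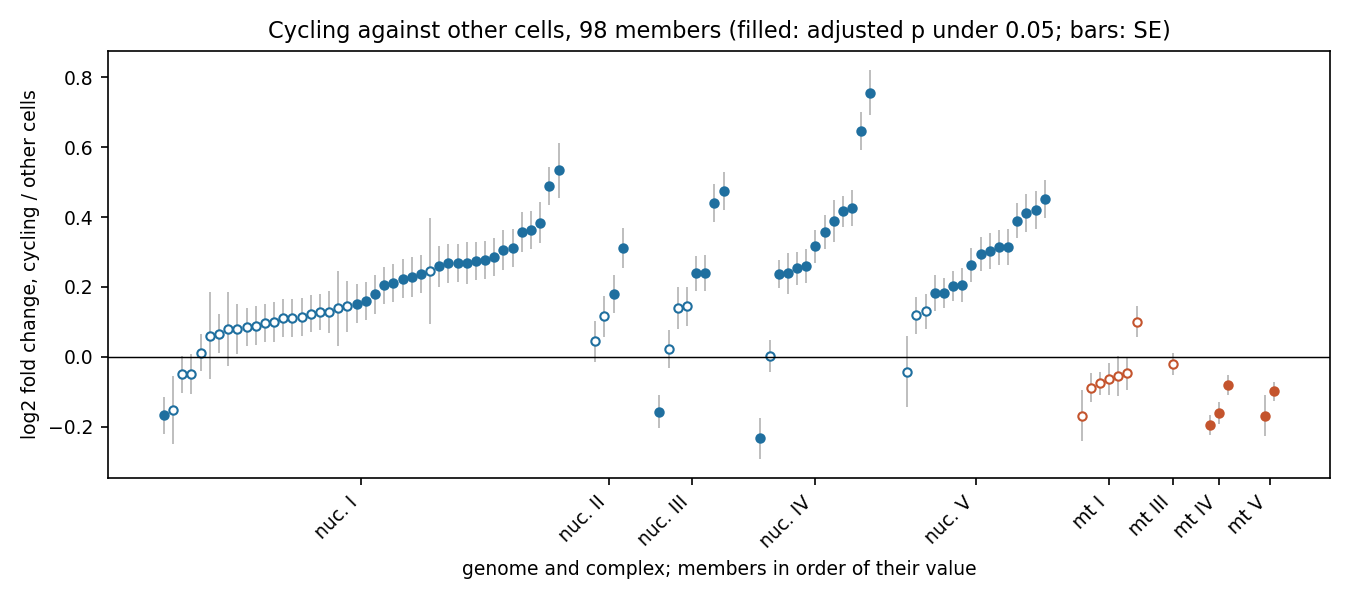
Log2 fold change of cycling over other cells (vertical axis) with its standard error for each member, grouped by genome and complex and ordered by value within a group. Filled points passed an adjusted p of 0.05; the nuclear groups lie mostly above 0, up to Cox6b2 at 0.76, and 12 of the 13 mitochondrial points lie below it.

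The summed nuclear share was 2.34% in cycling against 1.99% in other cells of LT-HSC 2, 2.24% against 1.99% in ST-HSC 1 and 2.52% against 2.17% in ST-HSC 2. The cycling value was higher in all 3 libraries and the classes did not overlap. The mean log2 ratio was 0.21 ± 0.031 (SD, n = 3 libraries). For the mitochondrial share the values were 2.96% against 3.21%, 3.22% against 3.48% and 2.99% against 3.27%, lower in cycling cells of each library, with a mean log2 ratio of -0.12 ± 0.0075. Counted as molecules per cell both genomes' genes were higher in cycling cells. The mean cycling cell of LT-HSC 2 had 348 nuclear and 440 mitochondrial UMIs of these genes, and the mean other cell 199 and 321. In ST-HSC 1 these were 306 and 440 against 193 and 338, and in ST-HSC 2 they were 274 and 324 against 163 and 245.

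Members of all nuclear complexes took part. In complex I 22 of 44 were higher and 1 lower, in complex II 2 of 4 were higher, in complex III 4 of 8 were higher and 1 lower, in complex IV 11 of 13 were higher and 1 lower, and in complex V 13 of 16 were higher. The mean log2 ratio of the summed share was 0.25 ± 0.035 for complex IV, 0.24 ± 0.033 for complex V, 0.16 ± 0.029 for complex I, 0.15 ± 0.036 for complex II and 0.14 ± 0.036 for complex III (SD, n = 3 libraries). Of the 7 nuclear core subunits of complex I 2 were higher, and of its 29 supernumerary subunits 19 were higher and 1 lower. Among the 8 Ndufaf assembly factors 1 was higher. Over all genes 16.8% were higher, so that the assembly factors were near the background, and differences between these classes were not tested.

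In complex IV the nuclear subunits at the front of the list stood well clear of the replicate spread. Cox5a had 369, 384 and 417 CPM in cycling cells of LT-HSC 2, ST-HSC 1 and ST-HSC 2, against 219, 266 and 270 CPM in the other cells. The classes did not overlap, and its log2 fold change was 0.65 (SE 0.054, edgeR adjusted p = 3.8e-08). Cox6b2 (chr7:4751792-4753094) had 75.1, 58.5 and 62.9 CPM against 44.3, 36.0 and 36.1 CPM. It had the largest log2 fold change of the 98 members at 0.76 (SE 0.064, edgeR adjusted p = 4.8e-08), with every cycling value above every other value. Its common form Cox6b1 (chr7:30616861-30626151) had 432, 443 and 476 CPM against 355, 377 and 407 CPM, a log2 fold change of 0.26 (SE 0.049, edgeR adjusted p = 0.00054).

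Ndufa4 had 803, 846 and 1050 CPM in cycling against 586, 669 and 786 CPM in other cells in the same order. These values did not overlap, and the log2 fold change was 0.42 (SE 0.045, edgeR adjusted p = 1.0e-06). Cox7a2 (chr9:79755361-79759878), the common form of a small complex IV subunit, had 415, 421 and 446 CPM against 308, 325 and 329 CPM, a log2 fold change of 0.43 (SE 0.051, edgeR adjusted p = 3.6e-06). Cox8a rose by 0.24 (SE 0.041) and Cox6a1 by 0.39 (SE 0.061), with edgeR adjusted p of 0.00025 and 8.7e-05, while the classes overlapped in both. Cox4i1 had 619, 604 and 607 CPM against 628, 614 and 601 CPM, a log2 fold change of 0.00 (SE 0.047, edgeR adjusted p = 0.985). It was the 1 complex IV gene that passed in neither direction.

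Cox7a2l (chr17:83501918-83517330), related in sequence to Cox7a2 and known for joining complexes III and IV into supercomplexes, moved the other way. It had 314, 394 and 299 CPM in cycling against 410, 438 and 343 CPM in other cells, lower in each library although the 2 classes overlapped between libraries. The log2 fold change was -0.23 (SE 0.059, edgeR adjusted p = 0.0056). The other nuclear members that fell were Uqcrh (chr4:116066965-116075071), the hinge protein of complex III, and Ndufa6 (chr15:82350140-82354322), an accessory subunit of complex I. Uqcrh had 626, 706 and 671 CPM against 726, 769 and 759 CPM, by a log2 fold change of -0.16 (SE 0.047, edgeR adjusted p = 0.017), and Ndufa6 had 242, 231 and 236 CPM against 263, 270 and 269 CPM, by -0.17 (SE 0.054, edgeR adjusted p = 0.025). In both the classes did not overlap. Without LT-HSC 2, and without ST-HSC 2, 1 nuclear member was lower in place of 3. The share of all genes called lower in those fits is not given here.

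In the other complexes the members named are those of smallest p and those of highest level. In complex I Ndufab1 (chr7:122085403-122101886), the mitochondrial acyl carrier protein, had 252, 258 and 272 CPM in cycling against 180, 191 and 191 CPM in other cells. The classes did not overlap, and the log2 fold change was 0.49 (SE 0.054, edgeR adjusted p = 1.6e-06). Ndufa13, an accessory subunit of the same complex, did not pass at -0.05 (SE 0.053, edgeR adjusted p = 0.527). In complex III Uqcr10 (chr11:4701973-4704342) had 360, 329 and 401 CPM against 257, 256 and 274 CPM and Uqcrq (chr11:53427922-53430831) 244, 242 and 270 CPM against 170, 187 and 205 CPM. Their log2 fold changes were 0.47 (SE 0.055) and 0.44 (SE 0.055), with edgeR adjusted p of 2.7e-06 and 5.8e-06. In both the lowest cycling value was above the highest other value. Sdha of complex II did not pass at 0.12 (SE 0.059, edgeR adjusted p = 0.154).

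In complex V Atp5g3 (chr2:73908447-73911326), a gene for the membrane ring subunit c, had 263, 266 and 276 CPM in cycling and 193, 202 and 199 CPM in other cells. Every cycling value was above every other value, and the log2 fold change was 0.45 (SE 0.054, edgeR adjusted p = 4.2e-06). Atp5f1 rose by 0.31 (SE 0.051, edgeR adjusted p = 0.00013). Atp5e had 895, 867 and 978 CPM against 774, 782 and 882 CPM, with overlap between libraries and a log2 fold change of 0.18 (SE 0.043, edgeR adjusted p = 0.0034). Of the genes with a window shown above, 6 of the 10 with the NRF1 letters and 5 of the 8 with the YY1 letters were higher, against 52 of all 85.

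By library, 65 of the 85 nuclear members had a higher level in cycling cells in all 3 libraries, against 25.4% of all genes, and 4 a lower one in all 3. The sums of the classes did not overlap for 35 nuclear members that were higher and 2 that were lower, where 14.7% and 12.9% of all genes had such values. Of the mitochondrial members 12 of 13 were lower in all 3 libraries, against 32.5% of all genes, and for mt-Co1 the classes did not overlap.

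The 5 mitochondrial members that passed as lower belong to complexes IV and V. The catalytic subunit mt-Co1 had 5716, 6087 and 6036 CPM in cycling against 6692, 6883 and 7032 CPM in other cells of LT-HSC 2, ST-HSC 1 and ST-HSC 2. Its log2 fold change was -0.20 (SE 0.028, edgeR adjusted p = 3.4e-05), the largest decrease among the mitochondrial members. The subunit mt-Co3 had 3635, 4499 and 3470 CPM against 4143, 4975 and 3954 CPM, a log2 fold change of -0.16 (SE 0.031, edgeR adjusted p = 0.00062). The third subunit of complex IV, mt-Co2, fell by 0.08 (SE 0.028, edgeR adjusted p = 0.040). All 3 were lower in each library.

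Of complex V, mt-Atp6, the proton channel subunit, had 6578, 7295 and 6423 CPM against 7119, 7907 and 6913 CPM, a log2 fold change of -0.10 (SE 0.026, edgeR adjusted p = 0.0082). The short gene mt-Atp8 had 101, 97.7 and 109 CPM against 113, 106 and 135 CPM, a change of -0.17 (SE 0.058, edgeR adjusted p = 0.035). None of the 7 complex I genes passed, with estimates from -0.17 for mt-Nd6, the same size as for mt-Atp8, to 0.10 for mt-Nd1, and mt-Cytb of complex III was at -0.02 (SE 0.032, edgeR adjusted p = 0.665). For mt-Nd2, mt-Nd3, mt-Nd4, mt-Nd4l and mt-Nd5 the estimates lay between -0.09 and -0.05.

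The gene mt-Nd1 went against the other 12, with 757, 881 and 725 CPM in cycling against 715, 822 and 687 CPM in other cells. It was higher in all 3 libraries but did not pass (log2 fold change 0.10, SE 0.045, edgeR adjusted p = 0.103), and without LT-HSC 2 it did (0.13, SE 0.046, edgeR adjusted p = 0.0247). The summed share of mitochondrial complex IV had a mean log2 ratio of -0.16 ± 0.020 and complex V -0.11 ± 0.0034, against -0.065 ± 0.028 for complex I and -0.034 ± 0.021 for mt-Cytb (SD, n = 3 libraries). The differences between complexes were not tested. The counts of lower mitochondrial members were 3 without ST-HSC 1, 1 without ST-HSC 2 and 6 without LT-HSC 2, where mt-Nd4 joined them (-0.07, edgeR adjusted p = 0.0189). The share of all genes called lower in these fits is not given here, so the counts cannot be set against it.

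No member's cycling difference passed a test of a further difference between LT-HSC and ST-HSC (0 of 98, where 0.976% of 13117 genes did, edgeR). The nearest was mt-Co1, with an interaction of -0.08 on the log2 scale (adjusted p = 0.063). LT-HSC entered this test with 1 library.

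Shares depended on the UMIs per cell within each class. Cells of each library were ordered by UMIs and divided into 3 depth classes of equal size. In the non-cycling cells of LT-HSC 2 the nuclear share was 1.85% in the shallowest, 1.96% in the middle and 2.14% in the deepest class. The cycling cells of that library had 1.78%, 2.03% and 2.44%. In ST-HSC 1 the shares were 1.90%, 1.96% and 2.10% in non-cycling and 1.89%, 2.03% and 2.32% in cycling cells, and in ST-HSC 2 they were 2.07%, 2.14% and 2.27% against 2.04%, 2.21% and 2.63%. The nuclear share therefore rose with depth in both classes, the 2 classes were alike in the shallowest cells, and cycling cells were above the others in the deepest. Within the deepest class cycling cells were still deeper, with medians of 16962.5 against 13008, 14861 against 12379 and 11903 against 9415 UMIs.

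**Figure D4:**
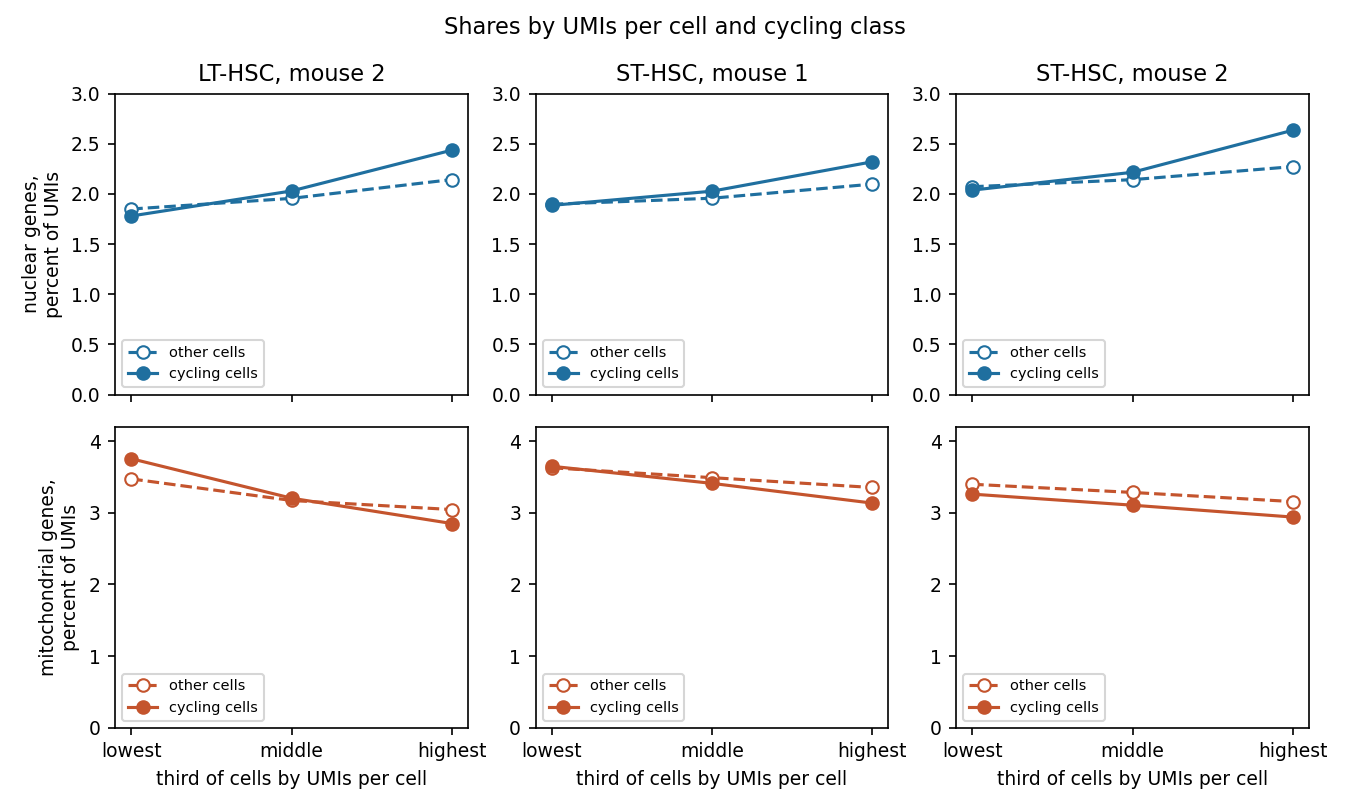
Share of UMIs (percent, axes from 0) of nuclear (top) and mitochondrial (bottom) members in cells of 3 libraries divided into 3 equal classes by UMIs per cell, for cycling (filled, solid line) and other cells (open, dashed line). Nuclear shares rise and mitochondrial shares fall with depth, and in the deepest cells of LT-HSC 2 the nuclear share is 2.44% in cycling against 2.14% in other cells.

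The mitochondrial share went down with depth. In non-cycling cells it was 3.47%, 3.17% and 3.05% from shallow to deep in LT-HSC 2, then 3.63%, 3.49% and 3.35% in ST-HSC 1 and 3.40%, 3.28% and 3.16% in ST-HSC 2. Cycling cells had 3.75%, 3.20% and 2.85%, then 3.65%, 3.41% and 3.14%, then 3.26%, 3.11% and 2.94%. In the shallowest cells of LT-HSC 2 and ST-HSC 1 the cycling value was above the other value, and in the deepest class it was below it in all 3 libraries. The shallowest class held only 27, 78 and 24 cycling cells.

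Cycling cells were then paired with other cells of the same library whose UMIs differed by at most 5%, an alternative chosen after seeing the data. This gave 169, 505 and 194 pairs, whose median UMIs were 12506 and 12505 for LT-HSC 2, 11561 and 11571 for ST-HSC 1, and 8857 in both classes for ST-HSC 2. The log2 ratio of the nuclear share was 0.050, 0.059 and 0.100 in the 3 libraries, a mean of 0.069 ± 0.027 (SD, n = 3), in place of 0.21. That of the mitochondrial share was 0.044, -0.049 and -0.029, a mean of -0.011 ± 0.049, so that its sign differed between libraries. Of the 52 nuclear members that were higher in all cells, all 52 were nearer to 0 in the matched cells, 50 kept a positive sign and 5 passed. Their median log2 fold change was 0.28 in all and 0.08 in matched cells.

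**Figure D5:**
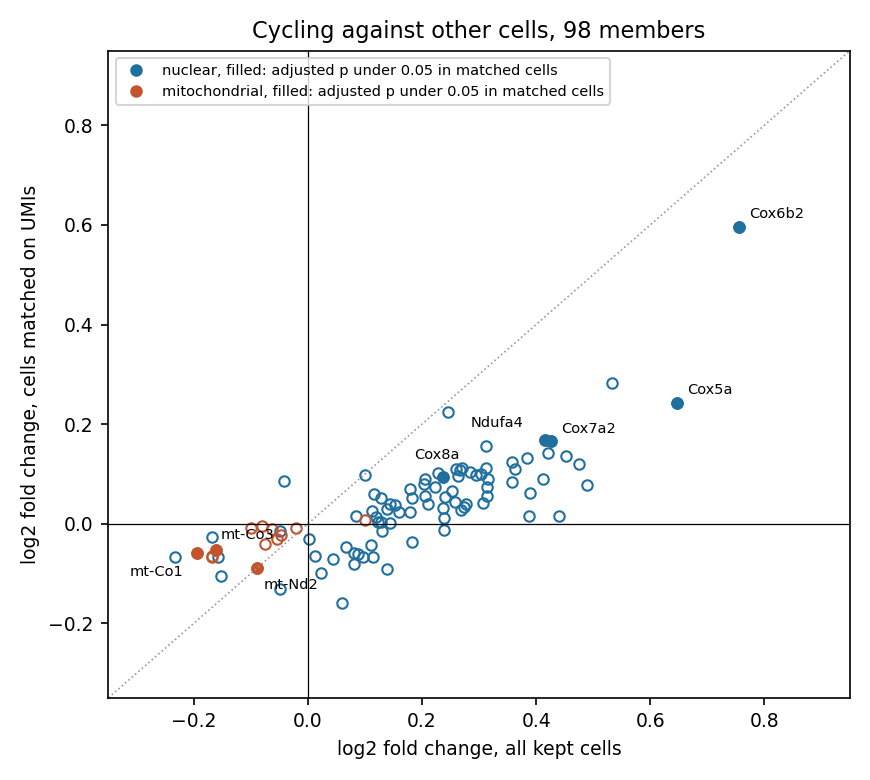
Log2 fold change of cycling over other cells in all kept cells (horizontal) and in cells matched on UMIs (vertical) for the 98 members, with the dotted line of equality. Filled and named points passed an adjusted p of 0.05 in matched cells; most nuclear points lie below the line, and Cox6b2 (0.76 and 0.60) has the largest value on both axes.

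All 5 nuclear members that passed in matched cells belong to complex IV. Over all 10539 genes 6.16% were higher there, and 5 of 85 nuclear members is near that share. Cox6b2 had 65.1, 59.2 and 68.2 CPM in matched cycling cells of LT-HSC 2, ST-HSC 1 and ST-HSC 2 against 45.3, 39.7 and 38.7 CPM in their partners. The classes did not overlap, and the log2 fold change was 0.60 (SE 0.097, edgeR adjusted p = 2.1e-06). Cox5a was at 0.24 (SE 0.044, edgeR adjusted p = 2.5e-05), Ndufa4 at 0.17 (SE 0.030, edgeR adjusted p = 1.8e-05), Cox7a2 at 0.17 (SE 0.042, edgeR adjusted p = 0.0037) and Cox8a at 0.09 (SE 0.026, edgeR adjusted p = 0.013). No nuclear member was lower. Atp5e, higher in all cells, had an estimate of -0.04 (SE 0.029, edgeR adjusted p = 0.554) that did not pass.

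Of the mitochondrial members 3 were lower in matched cells, where 2.52% of all genes were. For mt-Co1 the log2 fold change was -0.06 (SE 0.016, edgeR adjusted p = 0.0089), for mt-Co3 -0.05 (SE 0.018, edgeR adjusted p = 0.049) and for mt-Nd2 -0.09 (SE 0.028, edgeR adjusted p = 0.025). The gene mt-Nd1 was at 0.01 (SE 0.030). In cells of 8000 to 16000 UMIs 6 nuclear members were higher, where 5.22% of genes were, and no mitochondrial member was lower, where 1.89% were. After each cell was thinned to 4000 UMIs, which left 108, 294 and 127 cells called cycling, 22 nuclear members were higher, against 7.51% of genes, and 2 mitochondrial members were lower, against 3.32%.

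Other genes of the mitochondrion were read from lists that do not overlap the members, beside 16.8% of all genes higher and 13.2% lower. Among 14 electron carriers and partners 10 were higher in cycling cells and none lower, with a median log2 fold change of 0.31. Cycs, cytochrome c, which carries electrons from complex III to IV, was higher by 0.92 (SE 0.055), the adenine nucleotide carrier Slc25a5 by 0.66 (SE 0.052) and the ATP synthase inhibitor Atpif1 by 0.43 (SE 0.048). Of 78 genes of the mitochondrial ribosome, which translates only the mitochondrial transcripts, 35 were higher and 1 lower (median 0.16), among them Mrpl18 by 0.81 (SE 0.056), and of 25 import genes 12 were higher, with Timm50 by 0.71 (SE 0.065). In matched cells these counts were 3 of 14, 3 of 78 with 2 lower, and 0 of 25, where 6.16% of all genes were higher and 2.52% lower, so that for the ribosome and import lists the share higher was under that of all genes.

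For genes that act on the mitochondrial genome itself and for assembly factors the shares called were near or under those of all genes (16.8% higher and 13.2% lower). Of 29 genes for its replication, transcription and RNA processing 4 were higher and 3 lower, with a median of -0.06, among them Mgme1 at 0.50 (SE 0.091) and Hsd17b10 at -0.24 (SE 0.058). Of 42 assembly factors outside the naming pattern 5 were higher and 2 lower (median 0.02). In the tricarboxylic acid cycle 6 of 17 were higher and 1 lower (median 0.17), with Idh3a at 0.56 (SE 0.061) and Idh3b at -0.31 (SE 0.056), both subunits of isocitrate dehydrogenase. Of 12 biogenesis regulators 3 were higher and none lower, namely Pprc1, Myc and Gabpb1, and of 9 antioxidant genes 2 were higher and 1 lower. Over all genes in matched cells 6.16% were higher and 2.52% lower. There, no gene of the genome, assembly factor, tricarboxylic acid cycle or regulator lists was higher, and 1 of each was lower. Of the 9 antioxidant genes 1 was higher and none lower. In matched cells Idh3a was at 0.12 (SE 0.092, edgeR adjusted p = 0.554) and Idh3b at -0.22 (SE 0.068, edgeR adjusted p = 0.028). Between the gates none of the genes tested in these lists passed. The differences between lists were not tested.

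From cell to cell the shares varied more than the counting of molecules gives. The nuclear share of kept cells had a median of 1.96% (quartiles 1.79% and 2.18%) in LT-HSC 2, then 1.98% (1.80% and 2.18%) in ST-HSC 1 and 2.15% (1.96% and 2.37%) in ST-HSC 2. Its SD over cells was 2.44, 2.32 and 1.89 times the binomial SD at the same depth. The mitochondrial share had medians of 3.12%, 3.42% and 3.24% and an SD of 4.94, 3.85 and 3.05 times the binomial SD. In the 22 cells of LT-HSC 1 the medians were 1.65% and 4.45%.

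Across cells, the nuclear share of non-mitochondrial UMIs had a Pearson correlation with the mitochondrial share of -0.40 in LT-HSC 2 (1217 cells), -0.23 in ST-HSC 1 (2633 cells) and -0.12 in ST-HSC 2 (1707 cells). With each cell thinned to 2000 UMIs it was -0.30, -0.15 and -0.10. In cells without a UMI of Mki67 or Top2a it was -0.39, -0.19 and -0.055, and -0.29, -0.13 and -0.049 after the same thinning. Depth is shared by both: the nuclear share had a correlation with the logarithm of the cell's UMIs of 0.64, 0.32 and 0.42, and the mitochondrial share of -0.51, -0.25 and -0.25. Complexes of the same genome went together. In cells thinned to 4000 UMIs the 6 pairs among nuclear complexes I, III, IV and V had correlations of 0.16 to 0.37 over the 3 libraries and the 6 pairs among mitochondrial complexes 0.26 to 0.61. The 16 pairs of a nuclear with a mitochondrial complex had correlations from -0.26 to 0.04. These values are descriptions of cells of the same library and carry no test.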

How the data were processed

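The labels' protocols name 10x Chromium 3′ reagents (v3). The authors deposited raw UMI counts of each gene in each barcode. The submitters' processing notes name Cell Ranger 3.1.0 and build mm10, and the matrices give software 3.0.2, per the file headers. For the selection of barcodes, the method is not given in sources used here. Members, lists and tests were chosen with earlier results of these data known.

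Counts were summed over kept cells per library (gate) or per library and cycling class, and fitted with edgeR 4.0.16 (R 4.3.3, TMM, filterByExpr, quasi-likelihood F-test), adjusted over all genes tested at 0.05. SE is the log2 fold change over the root of F. DESeq2 1.42.0, other filters, depth settings and left-out libraries were alternatives. Totals of kept cells ranged from 115305 to 27870823 UMIs. No doublet caller was run, and intervals from counting would cover counting error only. Between the gates, with 2 mice, p-values measure the spread of few animals. Between cycling classes they measure the spread of the class difference over 3 libraries, of which LT-HSC 2 and ST-HSC 2 come from the same mouse. The mouse numbers pair the samples because LT-HSC and ST-HSC of a number come from the same animal, per the labels, and the mouse difference had a correlation of 0.06 between gates over 12656 genes and of 0.29 over 2357 genes of 50 CPM or more. In both comparisons the fits were tested on simulated data: changes of 1 on the log2 scale in 100 genes of 50 CPM or more were recovered for 94% between gates, with 9 false calls among 12534 genes, and changes of 0.3 and 0.6 for 39% and 100% between cycling classes, with 7 false calls among 12623. The simulated data held few changed genes and no effect of depth per cell. In the real cycling fit 16.8% of genes were higher and 13.2% lower, so these rates need not hold for it. Changes under 1 between gates were not simulated.

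Named members are the 13 mitochondrial genes, the nuclear ones of smallest p (at most 8 in each direction of a test, or the 6 nearest where fewer than 6 passed), the highest of each complex, isoform pairs and those at the 5 CPM limit. From each other list up to 3 of smallest p could be named. Genes beside the sequences were named for their motif. Promoters are RefSeq's for GRCm38.p6 and positions GENCODE vM21's.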

Additional observations from a re-analysis of the deposited data

Results flagged for a closer look

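In the main setting the mitochondrial share of UMIs differed in direction between the mice when LT-HSC was set against ST-HSC. The log2 ratio was 0.38 in mouse 1 and -0.033 in mouse 2, with 1 library per gate and mouse, and this difference between mice was not tested. The mouse 1 value rests on the 22 kept cells of the LT-HSC 1 library. With at most 5% mitochondrial UMIs allowed per cell it was -0.0018 in mouse 1 and -0.051 in mouse 2, and with all barcodes of that library it was 0.33 in mouse 1. The mouse 2 value was near 0 and its sign depended on the setting. With other types left out as planned the ratios were 0.38 in mouse 1 and 0.051 in mouse 2. With every cell weighted equally both were above 0 (0.53 in mouse 1 and 0.0078 in mouse 2). Mouse 2 stayed below 0 with a 20% limit (-0.027), with 22 markers of other types (-0.039) and without cycling cells (-0.026). Barcodes that failed the filters had 4.30% mitochondrial UMIs in that library, against 20.4% to 25.2% in the other 3.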

How the results depend on the processing

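Between the gates no member passed in most settings. DESeq2 put the median of all genes at 0.20 in place of -0.02, and that of the nuclear members at -0.16. With the mouse as a replicate block 1 nuclear member (Ndufa4) was lower. With every barcode of LT-HSC 1 counted, 1 mitochondrial member (mt-Nd6) was higher, and with the block added 1 nuclear (Cox6b2) and 1 mitochondrial member (mt-Nd6). The block changed no other call, and the nuclear share ratio with all barcodes was -0.0031.

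For cycling cells the 52 higher nuclear members became 6 with cells of other types left out as planned (which removed 919, 2173 and 1301 cells, since Prtn3, Cd79b and Nkg7 were detected widely), 22 after thinning, 6 in the band of 8000 to 16000 UMIs and 5 in matched cells. The 3 lower nuclear members became 0 in those 4 settings and with all 4 libraries, 1 with Mki67 alone, and 1 to 2 when a library was left out. The count of 5 lower mitochondrial members became 3 with DESeq2, with a 5% mitochondrial limit, with Top2a alone, with 22 markers of other types and in matched cells (2 of the 5 and mt-Nd2), 2 after thinning and 0 with all 4 libraries, with other types left out as planned and in the band; leaving out a library gave 1 to 6. Without LT-HSC 2, 1 mitochondrial member (mt-Nd1) was higher. The share of all genes called higher also moved, from 16.8% to 7.51% after thinning, 5.22% in the band and 6.16% in matched cells. The share called lower moved from 13.2% to 3.32%, 1.89% and 2.52% in the same order. Where no share of all genes is given for a setting, its counts cannot be set against one. Fewer cells entered some of these settings, and the estimates moved as well. The median log2 fold change of the 52 higher nuclear members was 0.28 in all cells, 0.22 after thinning, 0.11 in the band and 0.08 in matched cells. The part of each in the counts was not tested.

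The nuclear share ratio of 0.21 was 0.16 with other types left out, 0.30 with at least 2 UMIs for the call, 0.31 with Mki67 alone, 0.17 after thinning, 0.090 in the band, 0.069 in matched cells and 0.17 with every cell weighted equally. The mitochondrial ratio of -0.12 was -0.11 with the 5% limit, -0.14 with other types left out, -0.092 with all 4 libraries, -0.18 with at least 2 UMIs, -0.20 with Mki67 alone, -0.090 after thinning, -0.036 in the band, -0.011 in matched cells and -0.11 with equal weights. Atp5e turned to -0.038 in matched cells. The cause of each was not tested. Matching, equal weights and the rule with 22 markers were chosen after seeing the data. Over the named members and settings 503 cycling values kept their side of the threshold, 97 no longer passed, 11 newly passed and 1 turned. A change of sign was counted as a turn only where the main or the alternative fit passed. Values counted as kept can therefore have changed sign where neither fit passed. Of the gate values 540 kept their side of the threshold, with the same limit on direction, and 4 newly passed.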
